A study of Mus musculus with 30 samples.

Results

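Translation factors and ribosome biogenesis genes were examined on mouse expression arrays of sorted CD4+ T cells. The genes were chosen by symbol alone: initiation factors (Eif1 to Eif6, without the eIF2α kinases), elongation factors (Eef1 and Eef2), nucleolar proteins of the Nop series, subunits of RNA polymerase I, and Ncl, Npm1, Fbl, Nolc1, Rrs1 and Bzw1. The rule found 62 of the 8251 genes named alone on the array, carried by 85 of 12422 probe sets, and 19 of the 62 had several probe sets. For genes with several, values are those of the probe set brightest on average across the 30 arrays. The rule itself reads symbols and no measured value, but it was set with earlier results of these data known.

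The arrays (Affymetrix MG-U74Av2) came from NOD mice, a strain that develops autoimmune diabetes, and all cells carried the BDC2.5 T cell receptor transgene, which recognizes an islet antigen. Where an age was given it was 26 days or 4 weeks. Pancreas set 1 held T cells from the infiltrated pancreas of mice treated with rat IgG: 3 arrays of Treg cells, gated CD4+CD25+CD69-, and 5 arrays of Teff cells, gated CD4+ with low or no CD25 and of either CD69 status. Pancreas set 2 held 3 Treg (CD4+CD25+) and 3 Teff (CD4+CD25-) arrays from mice given antibody to ICOS, a costimulatory receptor, and 2 IgG Treg arrays with the CD69- gate. The lymph node set had no treatment named: in mesenteric nodes 5 arrays were of CD4+CD25+ and 3 of CD4+CD25- cells, and in peripheral nodes 3 were of each kind. The title of the series puts pancreatic Treg beside Teff cells. A CD25 gate enriches Treg cells but also takes activated cells, and the labels do not tie replicates to different mice. The p-values therefore speak of sample-to-sample spread, which may be technical.

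Ribosomes are built in the nucleolus, where RNA polymerase I transcribes ribosomal RNA and proteins such as nucleolin, nucleophosmin and fibrillarin process, modify and assemble it. Translation then starts when eIF2 brings the initiator tRNA to the small subunit, eIF3 holds the complex together, and the eIF4 factors bind the mRNA cap and unwind the leader. Resting T cells keep these genes low and raise them as they grow after activation.

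Some labels and libraries need naming before the results. One array was present in both pancreas sets, as IgG Treg replicate 3 of set 1 and replicate 2 of set 2 (the records correlated at r = 0.997, and other pairs of pancreatic arrays with them at 0.988 or less), and was counted 1 time in joint fits. Titles were followed where labels disagreed: the tissue entry read mesenteric for every peripheral array, and for mesenteric CD25+ replicate 2 the source name read CD25-. IgG Treg replicate 1 of set 2 had the highest Hba-a1 (13.21 on the log2 scale) and Lyz2 (9.12) of the 30 arrays. Cd3e was between 7.86 and 9.05 on all arrays. Il2ra, the CD25 gene, was at 5.32 or above on every node CD25+ array and at 4.29 or below on every node CD25- array. In set 1 it was at 5.58 or above in Treg and at 4.33 or below in Teff cells, while in set 2 one anti-ICOS Treg array was as low as 3.88, close to the Teff arrays (3.68 to 3.82).

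The actin 3'/5' ratio compares probe sets at the ends of the actin transcript and rises with degraded RNA or short copies. On the log2 scale it was 3.69, 4.53 and 3.02 in the Treg arrays of set 1 and from 2.38 to 3.11 in the 5 Teff arrays, a difference of 1.10. The exact permutation test (two-sided) gave p = 0.0357, or 0.175 after Benjamini-Hochberg adjustment over 7 such comparisons. It was 4.06, 2.45 and 2.65 in anti-ICOS Treg and from 2.16 to 2.41 in anti-ICOS Teff cells. CD25+ cells of the nodes lay between 2.61 and 3.30 and CD25- cells between 2.32 and 2.70, with the actin 3' signal itself lower in CD25- cells (8.75 to 11.2, against 11.7 to 12.4).

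Genes with related levels were set beside their promoters. RefSeq promoter entries (GRCm38.p6, 250 bases before to 50 after the start) were held for 50 of the 62 genes. The E-box CACGTG, the letters bound by Myc and related factors (palindromic, so the same on both strands), was present in 22% of these genes (11 of 50), against 11.5% of 6572 array genes and 8.09% of 27025 genes with an entry. Among the genes lower in Treg cells of set 1 or in CD25+ node cells, 2 of 17 with an entry held it (Eif1b and Eif3a), against 9 of the other 33. The ETS letters CCGGAAG (or CTTCCGG on the other strand) were present in 36% of the 50 genes, against 17.1% of the array genes. Of the same 17 lower genes 5 held them, against 13 of the other 33. The 100 bases before the start are printed for 3 genes that were lower in both tissues or in the pancreas (Ncl, Eif5, Eif4a2), for Bzw1, with the largest node difference, and for 3 genes with an E-box near the start (Eif1b, Eef2, Eif3k). Capitals mark CACGTG or CTTCCGG.
Ncl, chr1:86359456-86359555, minus strand: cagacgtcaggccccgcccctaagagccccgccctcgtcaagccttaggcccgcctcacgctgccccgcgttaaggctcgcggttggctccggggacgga
Eif5, chr12:111538001-111538100, plus strand: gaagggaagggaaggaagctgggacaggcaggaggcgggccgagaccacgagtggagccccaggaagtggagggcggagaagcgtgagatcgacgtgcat
Eif4a2, chr16:23107368-23107467, plus strand: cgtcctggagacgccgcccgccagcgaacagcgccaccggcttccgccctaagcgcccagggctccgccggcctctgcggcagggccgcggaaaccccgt
Bzw1, chr1:58392798-58392897, plus strand: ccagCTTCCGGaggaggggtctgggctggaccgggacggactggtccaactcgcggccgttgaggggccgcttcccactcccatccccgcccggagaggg
Eif1b, chr9:120492506-120492605, plus strand: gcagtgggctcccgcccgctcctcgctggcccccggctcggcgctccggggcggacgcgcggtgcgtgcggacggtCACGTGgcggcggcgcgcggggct
Eef2, chr10:81176531-81176630, plus strand: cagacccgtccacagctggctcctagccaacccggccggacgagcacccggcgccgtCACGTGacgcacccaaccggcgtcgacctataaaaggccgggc
Eif3k, chr7:28981889-28981988, minus strand: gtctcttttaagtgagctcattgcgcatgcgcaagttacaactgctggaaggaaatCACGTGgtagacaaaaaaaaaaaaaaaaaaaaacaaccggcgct
The E-box began 24 bases before the start in Eif1b, 43 in Eef2 and 44 in Eif3k. Neither motif was found in these 100 bases of Ncl, Eif5 or Eif4a2. A match describes letters in this window and is not a site.

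In the pancreas of IgG-treated mice, some nucleolar and initiation genes were lower in Treg than in Teff cells, 5 of 11 and 7 of 38. None of these calls held with the actin ratio as a covariate. Of the 62 genes, 13 fell and 2 rose at an adjusted p under 0.05 (limma, Benjamini-Hochberg over 12422 probe sets), and 47 did not pass. Over all probe sets 2.76% were called lower and 3.93% higher. The median log2 difference of the 62 was -0.10, against 0.03 over all probe sets, and 41 of 62 were negative. In bulk samples of sorted cells, fewer cells of a type and less RNA per cell cannot be told apart.

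Among the nucleolar genes, Ncl had the largest difference, which was also the largest of the 62. It encodes nucleolin, which binds nascent ribosomal RNA. Its log2 level was 6.87, 8.45 and 9.38 in the Treg arrays and 9.75, 10.23, 9.95, 10.22 and 10.03 in the Teff arrays. The groups did not overlap, and the difference was -1.80 (SE 0.43, 3.49-fold lower, adjusted p = 0.0332), with Treg replicate 1 far below the other Treg arrays. Leaving out 1 array at a time moved it from -2.38 (without Treg replicate 3) to -1.13 (without Treg replicate 1), and the call was lost in 5 of 8 such fits (without Treg replicate 2 or Teff replicate 2, 3, 4 or 5). Npm1, nucleophosmin, was at 9.51, 9.45 and 9.98 in Treg and between 10.65 and 10.82 in Teff cells. Its difference of -1.06 (SE 0.12) had the smallest adjusted p of the 62 genes, 0.000884.

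Fbl encodes fibrillarin, which methylates ribosomal RNA. It was at 7.18, 7.46 and 8.13 in Treg cells and between 8.56 and 9.13 in Teff cells, a difference of -1.16 (SE 0.20, adjusted p = 0.00782). Rrs1, a large-subunit assembly factor, was at 6.38, 5.94 and 6.66 against 6.80 to 7.72, a difference of -1.01 (SE 0.21, adjusted p = 0.0196). Both pairs of groups were fully apart. Nop16 fell by 0.63, so that 5 of the 11 nucleolar genes were lower and none was higher. The other 6 did not pass: Nop53, a factor of large-subunit maturation, was positive at 0.54 (SE 0.18, adjusted p = 0.122), and Nop2, Nop10, Nop56, Nop58 and Nolc1 lay between -0.20 (Nop10) and -0.0012 (Nop2). Of these 5, Nop56 and Nop58 are partners of fibrillarin in the particles that methylate ribosomal RNA. None of the 5 RNA polymerase I subunits passed (Polr1a to Polr1e, -0.27 to 0.12).

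**Figure D1:**
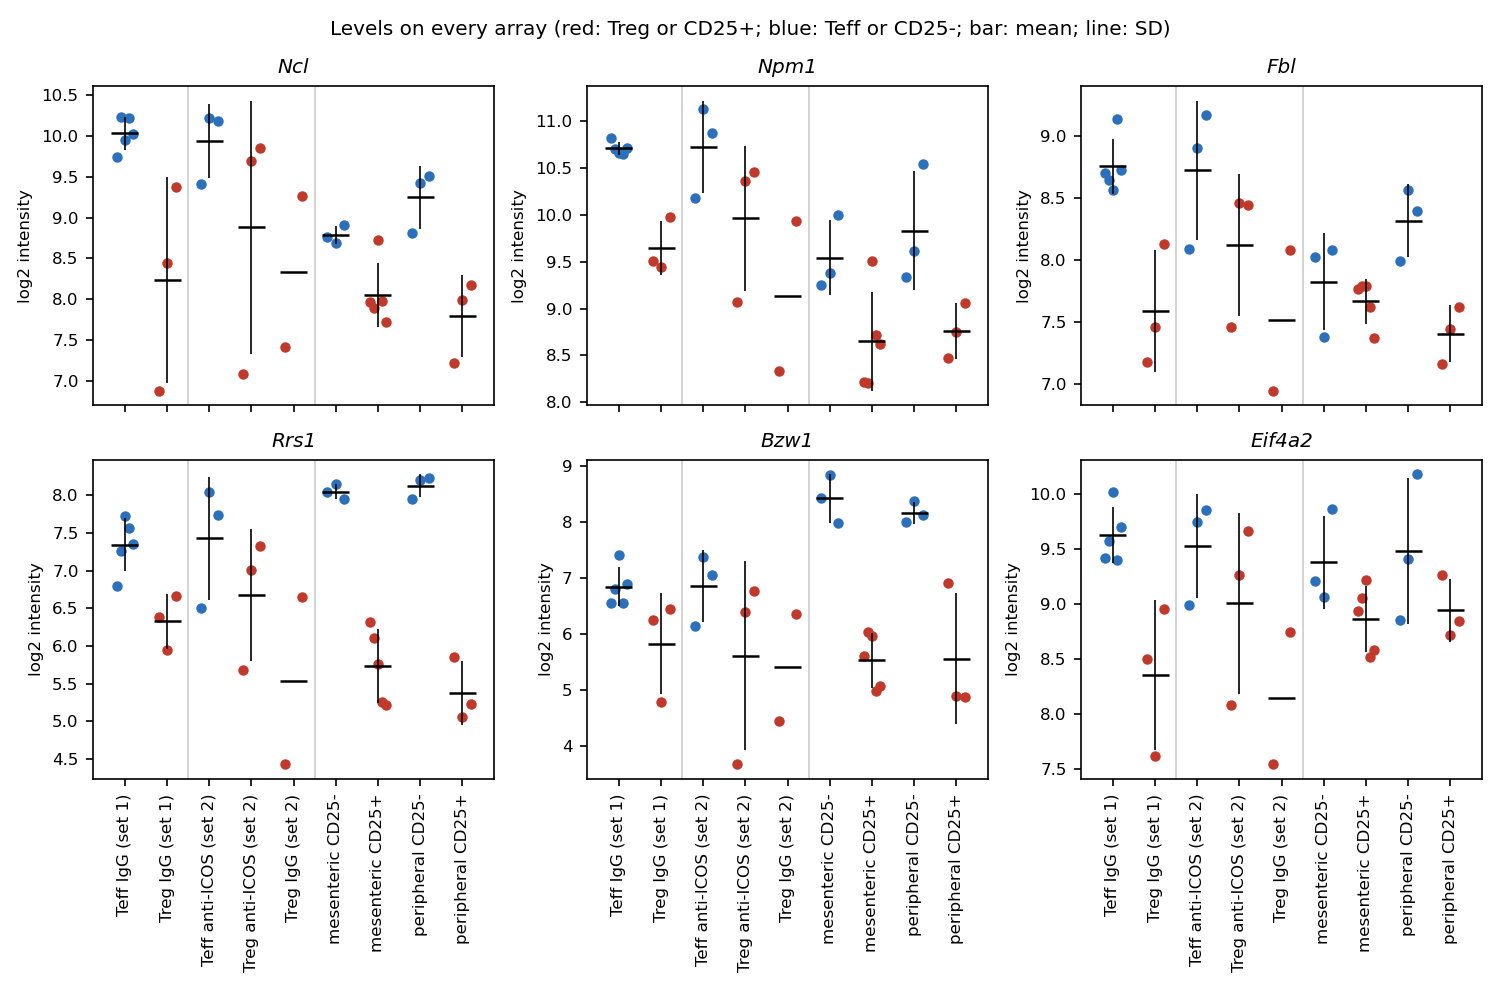
Log2 intensity of 6 genes on each of the 30 arrays (points), with the group mean (bar) and SD (vertical line, groups of 3 or more); red points are Treg or CD25+ and blue points Teff or CD25-, and vertical grey lines part the 3 sets. Ncl was at 9.38 or below in the Treg arrays of set 1 and at 9.75 or above in Teff, while Rrs1 and Bzw1 were widest apart between the CD25+ and CD25- cells of the nodes.

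Among initiation factors, 7 of 38 fell in set 1 and 1 rose, counting the 3 eIF4E-binding proteins and Bzw1. Eif4a2, a cap-complex RNA helicase, was at 8.50, 7.62 and 8.96 in Treg and between 9.40 and 10.02 in Teff cells, a difference of -1.27 (SE 0.26, adjusted p = 0.0177). Its close homolog Eif4a1 did not pass, at 0.16 (SE 0.12, adjusted p = 0.538). Eif4b, which stimulates the helicase, fell by 0.78 (SE 0.12, adjusted p = 0.00469). The cap-binding protein gene Eif4e was at -0.11 (SE 0.11, adjusted p = 0.651), with levels from 4.52 to 5.06. Eif4ebp1, the repressor that captures eIF4E, rose by 0.41 (SE 0.08, adjusted p = 0.0177) from levels of 3.87 to 3.99 in Teff to 4.21 to 4.43 in Treg cells, below the median level of the arrays. With the actin ratio as covariate it stood at 0.28 (adjusted p = 0.586).

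Of the factors around the initiator tRNA, Eif5, the activator of the eIF2 GTPase, fell by 0.97 (SE 0.22), and Eif5b, which joins the subunits, fell by 0.68 (SE 0.13). Eif2s3x, the eIF2 gamma subunit, fell by 0.55 (SE 0.11), and Eif2a, which encodes a separate tRNA-binding factor and not an eIF2 subunit, fell by 0.37 (SE 0.09). No eIF2B subunit, the exchange factor for eIF2, passed (4 genes, -0.06 to 0.12). Bzw1, an eIF5-mimic protein, was at 6.25, 4.79 and 6.44 against 6.56 to 7.41, and its -1.02 (SE 0.34) did not pass (adjusted p = 0.118) although the groups did not overlap. Of the 10 eIF3 subunits only Eif3e passed, at -0.95 (SE 0.20, adjusted p = 0.0198), while Eif3c at -0.71 and Eif3a at -0.60 did not. Eif3k stood at 0.48 (SE 0.18, adjusted p = 0.161).

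Few of the elongation genes passed in set 1. Eef1g, at group means of 2.86 in Treg and 2.73 in Teff cells, was far below the median level of the arrays and cannot show a lack of change. Eef1a1, which delivers aminoacyl-tRNA, fell by 0.41 (SE 0.11, adjusted p = 0.0487), from 12.58 to 12.70 in Teff to 12.04, 12.17 and 12.49 in Treg cells. Eef2, the translocation factor, was at -0.44 (SE 0.29, adjusted p = 0.446). Eef1akmt1, a methyltransferase of eEF1A, rose by 0.41 (SE 0.09, adjusted p = 0.0302), and the other 5 genes lay between 0.02 and 0.33.

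**Figure D2:**
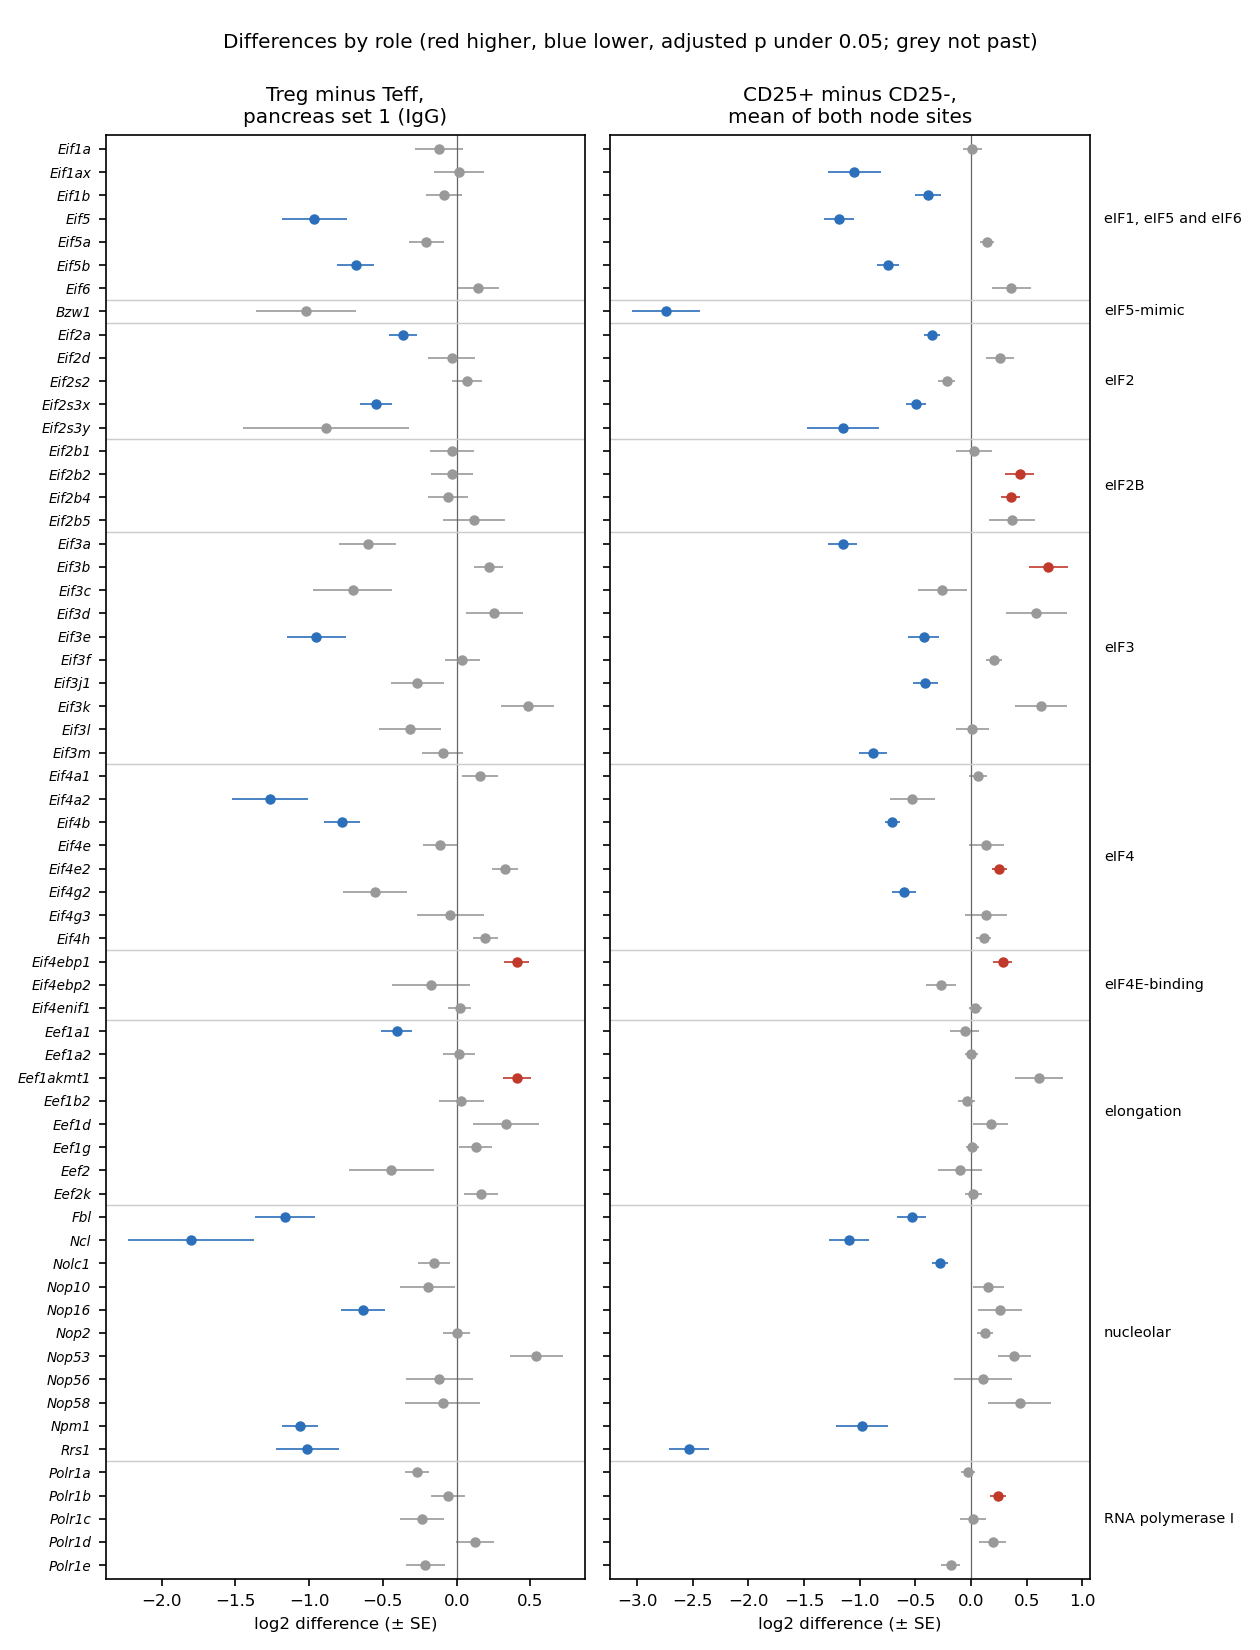
Log2 difference (± SE) of the 62 genes, grouped by role, for Treg minus Teff cells of pancreas set 1 (left) and CD25+ minus CD25- cells averaged over both node sites (right); red points were higher and blue points lower at an adjusted p under 0.05. The largest negative values lie among nucleolar genes, Bzw1, Eif5 and Eif4a2, and neither panel has a lower call among eIF2B or polymerase I subunits.

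Probe sets of 1 gene did not always move together in set 1. A second probe set of Eif1ax fell by 0.65 where the representative was at 0.02, and a second one of Eif4e2 rose by 0.56 where the representative, at 0.33, had an adjusted p of 0.0521. For Eif3e, Eif4b and Eif5b the other probe sets did not pass (0.01 for Eif3e, 0.04, -0.05 and -0.53 for Eif4b, -0.08 for Eif5b). The 0.04 and -0.05 probe sets of Eif4b and that of Eif5b had group means of 3.47 to 4.72. These were below the median level of the arrays and cannot show a lack of change. The -0.53 probe set of Eif4b (6.80 in Treg, 7.33 in Teff cells) moved the same way as its representative. The Eif2s3y probe set, at -0.88 (SE 0.56), is of a class that can match several related sequences, and Eif2s3x is its close X-linked copy, so its value is uncertain. The representative probe sets of Nop16, Polr1b, Eif4e2 and Nop58 are of the same class.

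The calls of set 1 were lost with the actin ratio in the fit, and the mean ratio was higher in Treg than in Teff arrays. That difference did not pass after adjustment (exact permutation test, adjusted p = 0.175), and the ranges of the ratio overlapped. With the ratio of each array as a covariate, 0 of the 62 genes passed, and 0.692% of all probe sets did. Before adjustment 7 of the 62 had p under 0.05 with the covariate and 24 without it. The 15 called genes kept a median of 68.6% of their log2 difference (range 50.5% to 101%), and the median SE grew from 0.126 to 0.210. Npm1 stood at -0.79 (adjusted p = 0.0841), Eif5b at -0.69 and Ncl at -1.28 (adjusted p = 0.712). Leaving out Treg replicate 2, the array with the ratio of 4.53, left 5 genes lower and none higher: Npm1, Fbl, Eif4a2, Eif4b and Eif2s3x. Without Teff replicate 2, 3 or 5, the number called was 9, 9 and 7. With the run of array numbers, a possible hybridization batch, as a block, 11 genes were lower and 1 higher.

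Within set 1 the ratio itself had no called coefficient when the groups were in the fit. It called 0 of the 62 genes and 0% of probe sets (2 genes and 330 probe sets at an unadjusted p under 0.05). The coefficients of the 62 leaned lower all the same: 43 were negative, with a median of -0.14, against 0.01 over all probe sets. Ncl and Fbl were lowest in Treg replicate 1, whose ratio was 3.69, and Npm1, Rrs1, Eif4a2 and Bzw1 in replicate 2, whose ratio was 4.53. The part of RNA quality in the set 1 differences was not tested beyond these fits.

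Markers of other cell types were read beside these values. Summed intensity of 11 B cell markers was 783 to 937 in Treg and 552 to 645 in Teff arrays of set 1, with 2 of 11 higher (Ighm by 0.74 and Cd79b by 0.69) and none lower. Of the 2 erythroid markers none passed, but their summed intensity was 2312 to 2886 against 471 to 2232. None of 14 macrophage and dendritic cell, 7 exocrine, 7 islet, 10 stromal or 4 CD8 and NK markers passed, and no marker was at 0. Their part in the result was not tested.

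In the lymph nodes a similar group of genes was lower in CD25+ than in CD25- cells, and the largest differences were in Bzw1 and Rrs1. Averaged over both sites, 19 of the 62 genes fell and 6 rose, against 11.5% of all probe sets lower and 9.39% higher. The share of the 62 that rose, 9.68%, was close to that of all probe sets. The median of the 62 was 0.01, against 0.05 over all probe sets. At the mesenteric site alone 8 fell and 1 rose (all probe sets: 7.53% lower and 4.66% higher), and at the peripheral site 13 fell and none rose (5.89% lower and 1.8% higher). With the actin ratio as covariate the peripheral count was 5 lower, and the mesenteric one 9 lower. The 8 lower mesenteric genes were also lower at the peripheral site: Bzw1, Rrs1, Eif5, Eif5b, Eif3a, Eif3m, Eif4b and Eif4g2. Over all probe sets, 575 of the 935 lower at the mesenteric site were also lower at the peripheral site.

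Rrs1 was at 8.04, 8.15 and 7.95 in mesenteric CD25- cells and at 6.32, 6.11, 5.76, 5.25 and 5.22 in mesenteric CD25+ cells. At the peripheral site it was at 7.96, 8.20 and 8.23 against 5.85, 5.05 and 5.22. No CD25+ array reached a CD25- array, and the mean difference was -2.53 (SE 0.18, 5.79-fold lower, adjusted p = 1.1e-06), the smallest adjusted p of the 62 in this comparison. Bzw1 was at 8.43, 8.84 and 7.97 against 5.61, 6.04, 5.96, 4.98 and 5.07 in mesenteric cells. In peripheral cells it was at 7.99, 8.37 and 8.12 against 6.92, 4.89 and 4.88, with CD25+ replicate 1 above the others. Its mean difference was -2.74 (SE 0.30, 6.68-fold lower, adjusted p = 3.6e-05).

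Of the other nucleolar genes, Ncl fell by 1.10 (SE 0.18, adjusted p = 0.00073), Npm1 by 0.98 (SE 0.23, adjusted p = 0.00844), Fbl by 0.53 and Nolc1, a chaperone of small nucleolar particles, by 0.28. The Nolc1 means, 3.66 in CD25+ and 3.95 in CD25- cells, were below the median level of the arrays. Ncl was at 8.77, 8.69 and 8.91 in mesenteric CD25- cells and at 7.96, 7.89, 8.72, 7.97 and 7.71 in CD25+ cells, where replicate 3 lay among the CD25- arrays. In peripheral cells Ncl was at 8.80, 9.43 and 9.51 against 7.22, 7.99 and 8.17. The mesenteric difference of Ncl alone, -0.74, did not pass (adjusted p = 0.0656), and the peripheral one, -1.46, did (adjusted p = 0.00474). The remaining 6 nucleolar genes did not pass and were positive, from 0.11 (Nop56) to 0.44 (Nop58), and Polr1b rose by 0.24.

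Most of the called eIF3 subunits were lower in the nodes, and only Eif3b was called higher. Eif3a, the scaffold subunit, fell by 1.15 (SE 0.13, adjusted p = 3.5e-05), Eif3m by 0.88 (SE 0.13), Eif3e by 0.43 and Eif3j1 by 0.41. Eif3b rose by 0.69 (SE 0.17, adjusted p = 0.0114), from 6.93 to 7.72 in CD25- cells to 7.41 to 8.59 in CD25+ cells. Its second probe set was at 0.14 and did not pass. With the actin ratio as covariate Eif3b stood at 0.77 and did not pass (adjusted p = 0.101). Eif3k at 0.63 and Eif3d at 0.59 did not pass, nor did Eif3c, Eif3f and Eif3l (-0.26 to 0.20). Eif3m was not called in pancreas set 1, where it stood at -0.10 (SE 0.14).

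Of the other initiation factors, Eif5 fell by 1.19 (SE 0.14, adjusted p = 4.6e-05), with CD25- arrays at 8.93 to 9.44 and CD25+ arrays at 7.74 to 8.59. Eif1ax, a scanning factor, fell by 1.05 (SE 0.24), Eif5b by 0.75, Eif4b by 0.71 (SE 0.07, adjusted p = 9.7e-06), Eif4g2, a relative of eIF4G, by 0.60, Eif2s3x by 0.49, Eif1b by 0.39 and Eif2a by 0.35. The Eif2s3y probe set fell by 1.15, with the same uncertainty between copies. The eIF2B subunits Eif2b2 and Eif2b4 rose by 0.44 and 0.36, Eif4e2, a cap-binding relative of eIF4E, by 0.25 and Eif4ebp1 by 0.28 (0.074 with the actin ratio as covariate, adjusted p = 0.75). Eif4e was at 0.14 (SE 0.16, adjusted p = 0.603) and Eif4a1 at 0.06 (SE 0.08, adjusted p = 0.653).

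None of the 8 elongation genes passed in the nodes. Eef1a1 was at -0.06 (SE 0.13, adjusted p = 0.808), Eef2 at -0.10 (SE 0.20, adjusted p = 0.778) and Eef1akmt1 at 0.61 (SE 0.22, adjusted p = 0.062). Second probe sets again differed: that of Eif5b rose by 0.26 while its representative fell, and that of Eif1a fell by 0.56 where its representative was at 0.01. For Eif1ax the second probe set, which fell by 1.54, was called lower like its representative.

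With the actin ratio as a covariate, 11 genes stayed lower and 1 higher in the nodes, against 5.97% of all probe sets lower and 2.52% higher. The 11 were Bzw1, Rrs1, Eif5, Eif5b, Eif3a, Eif3m, Eif3j1, Eif4b, Eif4g2, Eif2a and Nolc1, and the other was Polr1b. Rrs1 stood at -2.39 and Bzw1 at -3.03. Ncl stood at -0.86 (adjusted p = 0.0646), Npm1 at -0.95 (adjusted p = 0.133) and Fbl at -0.34 (adjusted p = 0.349). The ratio had no called coefficient in the nodes for any of the 62 genes, with 0% of probe sets called (2 genes and 383 probe sets at an unadjusted p under 0.05). Without mesenteric CD25+ replicate 2, whose source name says CD25-, 18 genes were lower and 6 higher.

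**Figure D3:**
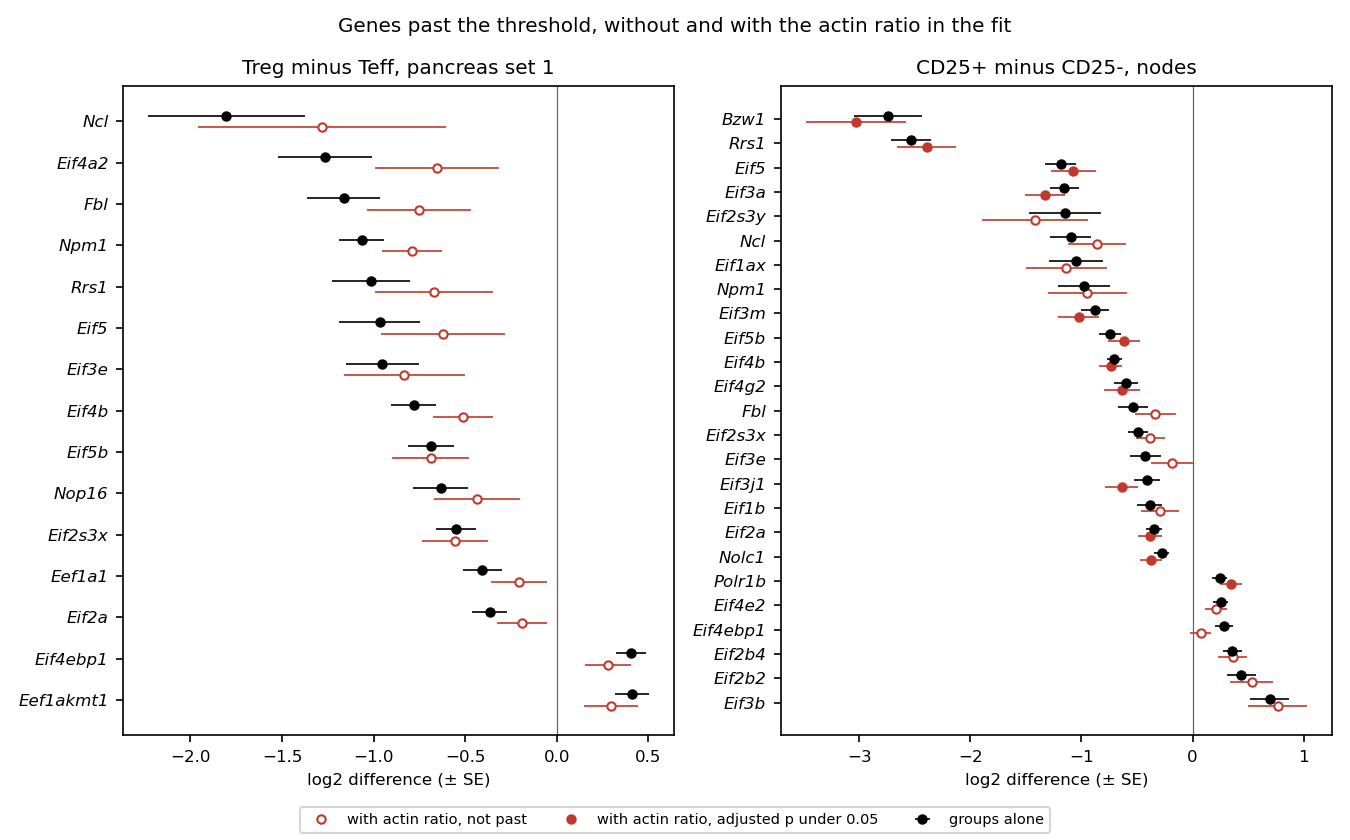
Log2 difference (± SE) of the genes called in pancreas set 1 (left, 15 genes) and in the nodes (right, 25 genes), from the fit of groups alone (black) and with the log2 actin 3'/5' ratio as a covariate (red; filled where the adjusted p stayed under 0.05). In set 1 no red point is filled, while 12 are filled in the nodes.

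Cell type markers in the nodes were read the same way. Summed B cell marker intensity was 564 to 629 in mesenteric CD25- and 618 to 737 in CD25+ cells, and 482 to 813 against 500 to 989 in peripheral cells, with 1 of 11 higher (Cd79b by 0.88). Of 4 CD8 and NK markers 1 was lower (Klrd1, which fell by 0.92). Of 14 macrophage and dendritic cell markers 1 was higher (C1qa by 0.21) and 1 lower (Ctss, which fell by 0.33), 1 of 7 exocrine (Cela2a) and 1 of 7 islet markers (Chga) rose by 0.25 and 0.26, and no erythroid or stromal marker passed. Of 10 T cell identity genes 3 were higher (Cd2, Cd5 and Cd6) and Cd4 fell by 0.43. The part of these markers in the node differences was not tested.

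Pancreas set 1 and the lymph node set share no array, and their differences were set side by side. Of the 13 genes lower in pancreatic Treg cells, 10 were also lower in CD25+ node cells (76.9% of the 13 and 52.6% of the 19): Ncl, Npm1, Fbl, Rrs1, Eif5, Eif5b, Eif4b, Eif3e, Eif2s3x and Eif2a. Over all probe sets the shared ones made up 69.4% of those lower in the pancreas and 16.6% of those lower in the nodes. Eif4ebp1 was the 1 gene higher in both, and with the actin ratio as covariate it was called in neither. The Pearson correlation of the differences was 0.718 across the 62 genes and 0.628 across all probe sets, which are not independent replicates. Eif4a2, Nop16 and Eef1a1 were called lower in the pancreas and not in the nodes, where Nop16 stood at 0.26 (SE 0.20) and Eif4a2 at -0.53 (adjusted p = 0.0825).

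**Figure D4:**
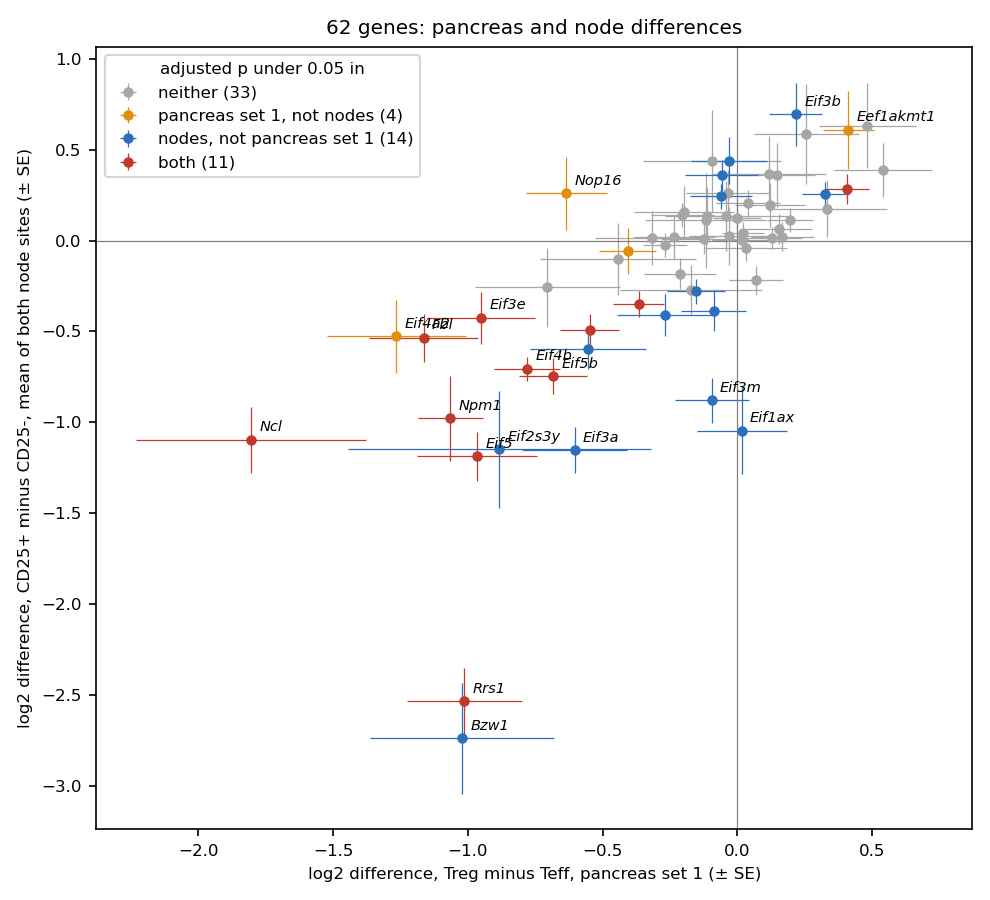
Log2 difference of each of the 62 genes in pancreas set 1 (x axis, Treg minus Teff) and in the nodes (y axis, CD25+ minus CD25-, mean of both sites), with SE bars, coloured by where the adjusted p was under 0.05. Called genes lie mostly in the lower left, and Rrs1 and Bzw1 lie below the others on the node axis.

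The difference between the 2 contrasts was itself tested in a joint fit. Rrs1 was the 1 gene called: its Treg contrast was less negative in the pancreas than in the nodes by 1.36 (SE 0.31, adjusted p = 0.0255), against 1.22% of all probe sets higher. With the actin ratio as covariate its value was 1.60 (adjusted p = 0.0508), and without set 1 Treg replicate 1 or 3 it was 1.31 (adjusted p = 0.0635) and 1.22 (adjusted p = 0.0807). Without peripheral CD25+ replicate 1, 5 genes were called, and without mesenteric CD25+ replicate 3, 4. Bzw1, at 1.56 (SE 0.53, adjusted p = 0.153), Eif1ax at 0.99, Nop16 at -0.92, Fbl at -0.82 and Eif4a2 at -0.78 did not pass. The gates differed between tissues, as did the sets, so tissue, gate and set cannot be told apart.

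Levels in the 2 tissues were compared in the same fit, after joint quantile normalization. In CD25+ cells, 12 genes were higher in pancreatic Treg cells and 12 lower, against 12.1% and 12% of all probe sets. With the actin ratio as covariate, 7 were higher and 3 lower. Eif1ax was 1.93 higher (SE 0.26) by its representative and at -0.15 by its second probe set, Eef1d, an exchange factor subunit, 1.04 and Eif3m 0.91, while Eif4a2 fell by 0.82, Nop10 by 0.76 and Eif4g2 by 0.73. Among CD25- or Teff cells, 24 were higher in the pancreas and 8 lower, against 13.3% and 13.7% of all probe sets. The share called lower, 12.9%, was close to that of all probe sets. Here Eif2b5 was 1.08 higher and Eif3e 0.92 (its second probe set was at -0.07), Eif1ax was 0.94 higher by its representative and called lower by its second probe set, and Bzw1 fell by 1.67 (SE 0.35, adjusted p = 0.00185), Rrs1 by 0.96 and Eif5 by 0.71.

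Both splits depended on the scaling, and without set 1 Treg replicate 3 the first comparison called 7 higher and 8 lower. With values as deposited, 34 genes were higher and 1 lower in the first comparison (60.1% and 2.48% of all probe sets), and 42 were higher and 5 lower in the second (66.4% and 3.88%). That scaling moved the median of all probe sets by 0.32 in both. Relative to all probe sets, the nucleolar genes Ncl, Npm1 and Fbl did not pass in the first comparison, and Npm1 (0.76) and Fbl (0.55) were higher in pancreatic Teff cells in the second.

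Anti-ICOS treatment was compared in 3 ways, and no gene of the 62 passed in any of them. IgG Treg cells had the CD69- gate and anti-ICOS Treg cells did not, so treatment and gate cannot be told apart. The Teff comparison and the contrast also spanned both sets, with different Teff gates. Between Treg and Teff cells of anti-ICOS mice, 0 of 62 genes and 0% of probe sets were called by limma (0 and 209 at an unadjusted p under 0.05). Il2ra on 1 of these Treg arrays (3.88) was close to the Teff arrays. The lowest Ctla4 of the Treg arrays (6.02) lay within the Teff range (5.81 to 6.26). Not even Il2ra or Ctla4 was called, so the lack of calls does not show a lack of difference. Ncl was at 7.08, 9.70 and 9.85 in the Treg arrays and at 9.41, 10.22 and 10.18 in the Teff arrays, a difference of -1.06 (SE 0.76). Replicate 1, with the actin ratio of 4.06, lay far below the other Treg arrays, and with the ratio as a covariate the difference turned to 0.24 (SE 0.23). The largest differences were -1.24 (SE 0.83) for Bzw1, Ncl and -0.78 for Eif3m on the lower side, and 0.38 for Nop58, 0.37 for Eif4ebp1 and 0.35 for Eif4e2 on the higher side.

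Anti-ICOS and IgG Treg cells of set 2 did not differ past the threshold in any gene (0% of probe sets, and 3 genes and 425 probe sets at an unadjusted p under 0.05). The 2 IgG arrays differed widely from each other: Ncl was at 7.41 and 9.27, Rrs1 at 4.43 and 6.65 and Npm1 at 8.34 and 9.94, the lower value in each case from replicate 1, with an actin ratio of 4.16 against 2.93. Rrs1 stood at 1.13 (SE 0.75), Nop58 at 1.09 (SE 0.45) and Nop16 at 0.99 (SE 0.21, adjusted p = 0.89), and Eef2k at -0.47, Polr1b at -0.44 and Eif4h at -0.34. Without IgG replicate 2, an array that set 1 also holds, 2 genes were called higher.

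Anti-ICOS and IgG Teff cells, joined from both sets, gave 0 of 62 genes and 0% of probe sets (3 and 512 at an unadjusted p under 0.05). The largest values were 0.38 (SE 0.15) for Eif2a, 0.33 for Eif2s3y and 0.30 for Eef1akmt1, and -0.36 for Eif4ebp1, -0.23 for Eif3e and -0.20 for Eif3f. With values as deposited 5 genes were called lower, and the median of all probe sets moved to -0.26. The Treg contrast did not differ past the threshold between anti-ICOS and IgG mice (0 of 62 genes and 0% of probe sets, with 4 and 327 at an unadjusted p under 0.05). Eif4a2 was at 0.87 (SE 0.43), Nop58 at 0.86 and Ncl at 0.85 (SE 0.79), and Polr1b at -0.42, Eif4h at -0.37 and Eif3k at -0.36.

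Pancreas set 2 was the set in which the genes followed the actin ratio within groups. With the groups in the fit, 14 of the 62 genes fell and none rose as the ratio rose, against 4.29% of all probe sets lower. Per log2 unit of the ratio, Bzw1 fell by 1.81 (SE 0.22, adjusted p = 0.00946), Ncl by 1.70 (SE 0.16, adjusted p = 0.00493), Eif1ax by 1.41 and Npm1 by 1.05. Of the 14, 6 were eIF3 subunits (Eif3a, Eif3c, Eif3e, Eif3j1, Eif3l and Eif3m), and the others were Eif2s3y, Eif4a2, Eif4g2 and Eef1a1. The largest positive coefficients, 0.38 for Eif4e2, 0.34 for Nop10 and 0.32 for Eif3k, did not pass.

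That relation rested on few arrays. In set 2 the ratios above 4 belonged to anti-ICOS Treg replicate 1 and IgG Treg replicate 1. Leaving out either IgG Treg array left 3 genes called, leaving out anti-ICOS Treg replicate 1 or 2 left 5, and leaving out anti-ICOS Teff replicate 2 left 7. With the Gapdh 3'/5' ratio in place of the actin ratio, 0 genes were called. IgG Treg replicate 1 also held the high Hba-a1 and Lyz2 levels, so these and the ratio moved together on that array, and their separate parts were not tested.

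**Figure D5:**
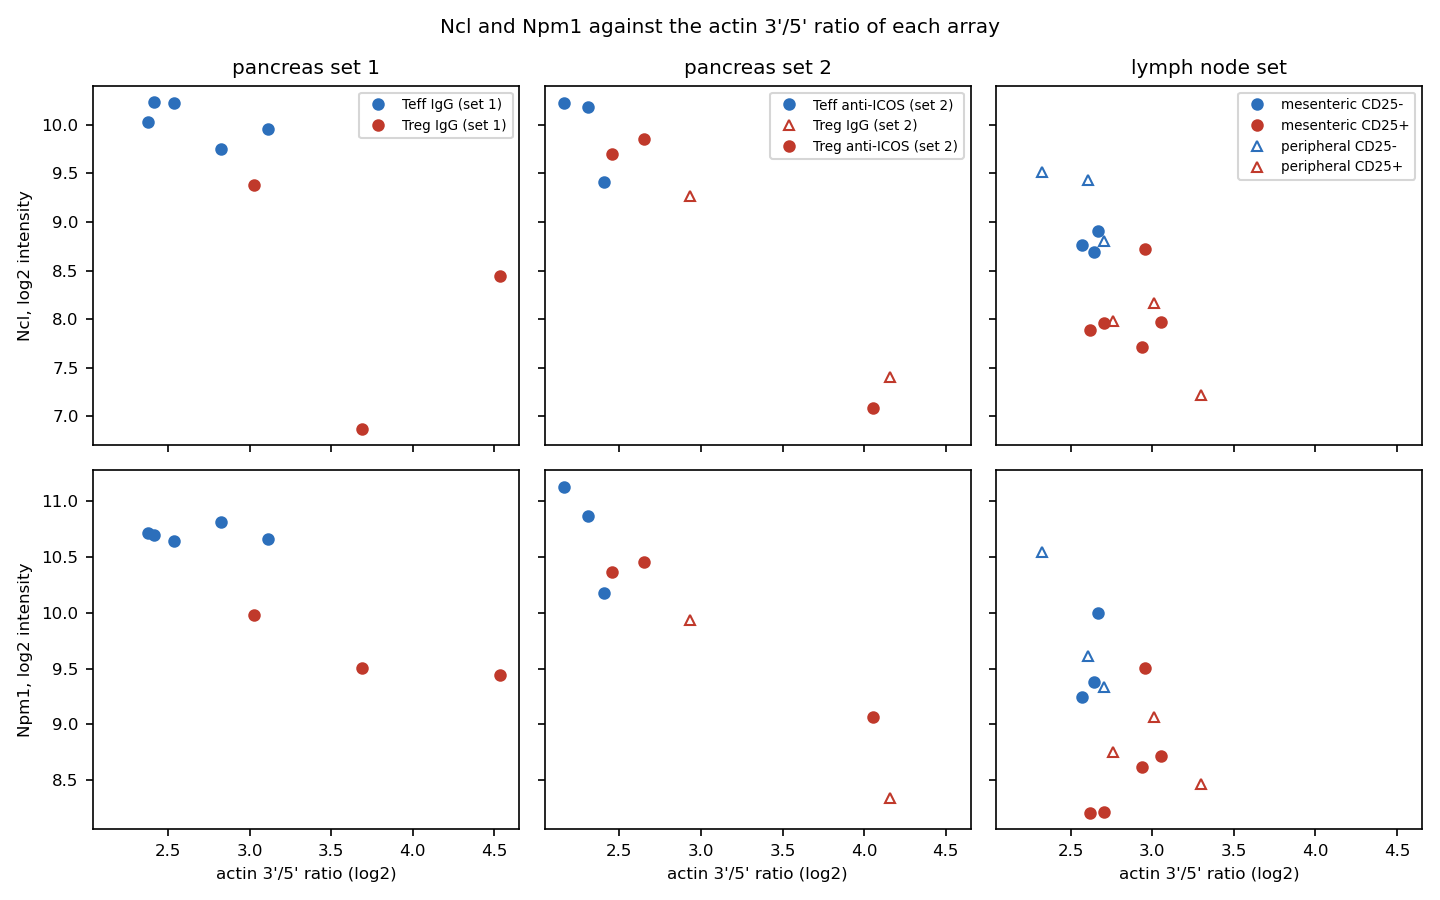
Log2 intensity of Ncl (top) and Npm1 (bottom) against the log2 actin 3'/5' ratio of each array, by set; red marks are Treg or CD25+ and blue marks Teff or CD25- arrays, and open triangles are IgG Treg arrays in set 2 and peripheral arrays in the nodes. In set 2 the 2 arrays with ratios of 4.06 and 4.16 have the lowest Ncl (7.08 and 7.41). In the nodes the ratios ran from 2.32 to 3.30, and neither gene was called with the ratio as a covariate.

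The node sites were also compared with each other. For the CD25 contrast, mesenteric minus peripheral, none of the 62 genes passed (0.00805% of probe sets called, 3 genes at an unadjusted p under 0.05). Fbl stood at 0.75 (SE 0.26), Ncl at 0.72 and Nop58 at 0.65, and Bzw1 at -0.28, Polr1b at -0.20 and Eif3f at -0.13. The values leaned positive all the same: 47 of 62, with a median of 0.17, against 0.0007 over all probe sets. Between mesenteric and peripheral CD25+ cells 0 genes passed (0.0725% of probe sets called, 1 gene at an unadjusted p under 0.05), from -0.27 for Eif4e to 0.42 for Nop58. Of the 62, 36 were positive. In CD25- cells 0 genes passed (0.451% of probe sets called, 3 genes at an unadjusted p under 0.05), from -0.49 for Fbl to 0.25 for Bzw1. Here 53 of 62 were negative, with a median of -0.10, against -0.01 over all probe sets.

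Other genes of the same machinery were taken from lists, whose counts stand against 2.76% of all probe sets lower and 3.93% higher in set 1, and 11.5% lower and 9.39% higher in the nodes. Of 67 measured ribosome biogenesis factors outside the rule, 12 were lower and none higher in pancreatic Treg cells, with a median of -0.14 (all probe sets: 0.03). In the nodes 22 were lower and 3 higher, with a median of -0.09 (all probe sets: 0.05). The smallest adjusted p in set 1 belonged to Utp4 (-1.43, SE 0.26), Wdr43 (-0.82), Rcl1 (-0.70) and Ddx18 (-0.53), and in the nodes to Tsr1 (-1.51, SE 0.10), Rpf2 (-0.99), Krr1 (-0.77) and Nip7 (-0.68). Utp4 and Krr1 act on the small subunit, and Rpf2 is the partner of Rrs1 in loading the 5S particle onto the large subunit.

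Of 10 termination, recycling and mRNA-binding factors, 2 were lower in set 1 (Gspt1, a release factor, -0.67, and Paip2, a repressor of poly(A)-binding protein, -1.03). In the nodes 4 were lower and 1 higher, among them Abce1, the ribosome recycling factor (-1.42, SE 0.21), and Abcf1 (0.48). Of 21 aminoacyl-tRNA synthetases, 2 were lower in set 1 (Farsb, -0.79, and Nars, -0.92), and 6 were lower and 2 higher in the nodes (Rars, -1.45, and Nars, -1.41, the largest named). Their medians were -0.42 and -0.06 in set 1 and -0.11 and 0.07 in the nodes.

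Of 31 genes of the Myc network and growth, 0 passed in set 1 (11 at an unadjusted p under 0.05, median -0.10), and in the nodes 7 were lower and 4 higher (median 0.07). The lower ones included Pa2g4, a growth-linked nucleolar protein (-0.79, SE 0.09), the mitochondrial chaperones Hspe1 (-0.70) and Hspd1 (-0.75), and Nampt (-1.44). Of 17 kinases and regulators of translation control, 0 passed in set 1 (3 at an unadjusted p under 0.05, median -0.01), and 2 were lower in the nodes (Tsc1, -0.32, and Pdpk1, -0.41), a share close to that of all probe sets. The share of synthetases higher in the nodes was likewise close to that of all probe sets.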

How the data were processed

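The authors deposited linear intensity values, and their log2 was analysed. RMA (no version) is named by the submitters' processing notes for pancreas set 2 and the nodes; for pancreas set 1 the method was not given in the sources used here. Array medians spanned at most 0.0972 (log2) within a set, so sets were used as deposited, and joint fits were quantile-normalized. The 66 control probe sets were left out of tests. Those of the node arrays were stored in another order (r = 0.254 with set 1 as stored, 0.952 reordered). The number of arrays limits the precision.

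Comparisons were fitted with limma 3.58.1 in R 4.3.3 (two-sided, Benjamini-Hochberg over 12422 probe sets, threshold 0.05) and tested on simulated data. Gene names came from the platform annotation, and all 62 genes matched the GRCm38.p6 table by Entrez identifier; 1 probe set naming several symbols was left out. The members and lists were chosen with earlier results of these data known. Values are given for genes past the threshold in a comparison, its 3 largest differences each way, Ncl, Npm1, Fbl, Eif4e, Eif4a1, Eef1a1 and Eef2, and genes whose probe sets disagreed. For the joint tissue comparisons a selection of the genes past the threshold is named. In set 2, deviations of same-numbered arrays correlated in 7 of 7 pairs (0.24 to 0.62), and the number was tried as a block. Same-numbered arrays there often came from different runs of array numbers. The labels therefore do not establish a pairing, and the main fits used none.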

Additional observations from a re-analysis of the deposited data

Results flagged for a closer look

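Single arrays stood apart from the other 4 of their group in 7 of 98 combinations of a named gene (or the actin ratio) and a group of 5 arrays; chance alone marks about 1 in 20. In mesenteric CD25+ cells replicate 3 was high for Eif1ax (7.34, others at most 6.01) and Ncl (8.72, others at most 7.97) and low for Nop10 (7.24, others at least 7.89), and replicate 1 was low for Nolc1 (3.47, others at least 3.64). In set 1 Teff cells Fbl was high in replicate 4 (9.13, others at most 8.73), Nop2 low in replicate 3 (5.88, others at least 6.01) and Nop58 low in replicate 2 (5.36, others at least 6.12). Without mesenteric CD25+ replicate 3, the mesenteric comparison called 14 genes, 12 of them lower, in place of 9.

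Rrs1 differed in its Treg contrast between pancreas and nodes, by 1.36 in the joint fit, where the contrast was less negative in the pancreas.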

How the results depend on the processing

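Alternatives were run on every comparison. With the actin ratio as covariate, the number of the 62 genes called changed from 15 to 0 in set 1, from 13 to 5 in peripheral nodes, from 25 to 12 over both node sites, from 24 to 10 between pancreatic Treg and node CD25+ cells, and from 1 to 0 for the contrast between pancreas and nodes. With values as deposited, 5 genes were called for anti-ICOS against IgG Teff cells. For the contrast between pancreas and nodes, 2 genes were called with bright probe sets alone and 2 with the mean over probe sets. The Gapdh ratio in place of the actin ratio called 0 genes in set 2. Leaving out 1 array at a time gave 5 to 16 genes in set 1, 0 to 2 for anti-ICOS against IgG Treg cells, 6 to 14 in mesenteric nodes, 0 to 5 for the contrast between pancreas and nodes, 15 to 26 between pancreatic Treg and node CD25+ cells, and 3 to 17 for the actin coefficient of set 2. Across single genes, 2551 of 2882 values kept direction and side of the threshold, 292 lost the call, 21 gained it and 18 changed sign.

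The values that changed sign were mostly small. With the actin covariate, Treg minus Teff in anti-ICOS mice turned to 0.14 for Bzw1, 0.040 for Eif3m and 0.24 for Ncl, anti-ICOS minus IgG turned to -0.30 for Ncl in Treg and -0.027 for Eif2s3y in Teff cells. Leaving out an array gave ranges that cross 0: -0.39 to 1.47 for Ncl in anti-ICOS against IgG Treg cells (negative without IgG replicate 1), -0.44 to 0.076 for Eif3e in anti-ICOS against IgG Teff cells, -0.039 to 0.94 for Eif3d in peripheral nodes, -0.62 to 0.39 for Bzw1 in the difference between node sites and -0.60 to 0.016 for Eif4e between CD25+ cells of the sites. The run of array numbers as a block turned Polr1b to 0.23 in anti-ICOS against IgG Treg cells. Between tissues, values as deposited turned Eif4b to 0.019, Nop2 to 0.10 and Eif5a to 0.13, and the mean over probe sets turned Eif2s2 to -0.052 and Eif1ax to -0.033. The cause was not tested.

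With the replicate number as a block, 0 genes were called in either comparison of set 2, as without it. In the nodes, 8 of 18 pairs of same-numbered arrays correlated above 0.1, so the numbers were not taken as pairing; the block gave 20 called genes over both sites (17 lower, 3 higher), against 25, and turned Bzw1 to 0.054 for the difference between node sites and Nop58 to -0.015 between CD25+ cells of the sites. It changed no other sign.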
